A study of Mus musculus with 12 samples.

Results

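The collagens, laminins and integrins of the mouse embryonic telencephalon were the genes whose symbol in the deposited table has the form of a collagen chain (Col, a type number, a and a chain number), a laminin alpha, beta or gamma chain (Lama, Lamb or Lamc with a number) or an integrin subunit (Itga or Itgb with a suffix). Of the 86 matching names, Itgbl1 and Itgb1bp1 were left out by the ending of the name, and 84 of the 26190 genes remained. They were 44 collagen chains, 11 laminin chains, 27 integrin subunits and 2 genes that only share the name, Itgb3bp and Itgb1bp2, which are not integrins but are kept in the counts because the naming rule holds them.

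The samples were whole telencephalons, with the primordia of the cerebral cortex and of the basal ganglia, dissected from untreated wild-type C57BL/6J embryos at embryonic day (E) 11.5 or 14.5. There were 4 groups of 3 libraries, males and females of each age, and each library held polyA RNA of 1 embryo. The E11.5 embryos came from 3 mothers, each giving 1 male and 1 female, and the E14.5 embryos from 2 mothers, of which the second gave only replicate 3 of each sex. The study's methods text and its table of mothers differ on the number of E11.5 litters, and the table was followed here. Each of the 4 groups carries its own series of sequencing identifiers, so a difference between groups and a difference between sequencing series cannot be told apart.

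Collagens are trimers of alpha chains. Fibrillar collagens (types I, II, III, V, XI, XXIV and XXVII) form the fibrils of the mesenchyme around the brain, whereas collagen IV forms the network of basement membranes. Laminins are trimers of 1 alpha, 1 beta and 1 gamma chain and polymerise on cell surfaces; in the embryonic brain they lie in the pial basement membrane, to which the endfeet of radial glia attach, and around blood vessels. Integrins are receptors of 1 alpha and 1 beta subunit that bind collagens, laminins, fibronectin and other ligands and connect them to the cytoskeleton.

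The libraries held between 17551763 and 28355361 gene counts. Tubb3, a neuronal tubulin, lay between 646 and 801 CPM (counts scaled to library size by the trimmed mean of M-values) at E11.5 and between 1248 and 1648 CPM at E14.5, and Pax6, a transcription factor of radial glia, between 83.5 and 121 CPM over all 12 libraries, so the markers of the labelled tissue were present in every library. The whole telencephalon also held other cells: the summed CPM of 17 erythroid and megakaryocyte genes lay between 4790 and 8197 at E11.5 and between 1014 and 1385 at E14.5, and that of 10 choroid plexus genes between 72.3 and 82.5 and between 248 and 697. The 2 libraries of the second E14.5 mother stood apart from the other libraries of their groups, with a chi-square per degree of freedom over genes of 10.4 to 16.8 against 2.41 and 5.02 between the libraries of the first mother. The calls are therefore also compared with those made without these 2 libraries.

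The members took 0.345% to 0.418% of all gene counts at E11.5 and 0.235% to 0.284% at E14.5, with no overlap between the ages. Per length, in FPKM (fragments scaled to transcript length and library size), the summed collagen level lay between 349 and 460 at E11.5 (median 407) and between 217 and 256 at E14.5 (median 241). The summed integrin level lay between 133 and 142 FPKM at E11.5 and between 85.5 and 104 FPKM at E14.5. In both families the ages did not overlap. The summed laminin level, 46.4 to 51.7 FPKM at E11.5 and 38.4 to 51.5 FPKM at E14.5, overlapped between the ages.

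**Figure D1:**
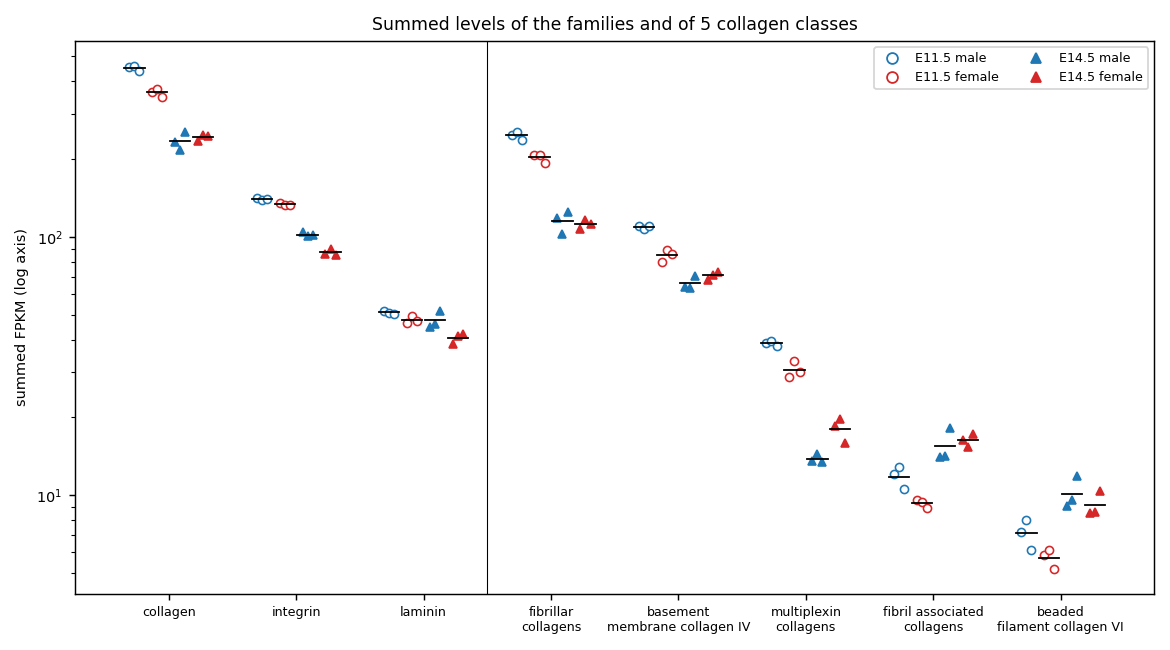
Summed FPKM (log axis) of the 3 families, left of the line, and of 5 collagen classes, right of it, in each of the 12 libraries; open circles are E11.5, filled triangles E14.5, blue male and red female, and each bar is the mean of 3 libraries. The collagen and integrin sums were lower at E14.5 in every library, whereas the sums of the fibril associated collagens and of collagen VI were higher in every E14.5 library.

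The composition of the collagen sum also differed between the ages. Fibrillar collagens made up a median of 55.4% of summed collagen FPKM at the earlier age and 47.2% at the later age, while collagen IV made up 24% and 29%. The fibril associated collagens, which attach to the surface of fibrils, made up 2.59% and 6.74%. At E11.5 the 4 members with the highest mean FPKM were Col3a1 (96.6 ± 11.7 SD, n = 6), Itgb1 (61.3 ± 0.783), Col4a1 (58.3 ± 8.91) and Col2a1 (38.3 ± 3.17). At E14.5 they were Itgb1 (47.4 ± 6.04), Col3a1 (45.3 ± 5.75), Col4a1 (38.3 ± 2.96) and Col4a2 (22.5 ± 1.19), and the first and the second did not differ beyond their spread. The FPKM of Col3a1 was above that of Itgb1 in every E11.5 library, and the ranges of the genes overlapped at E14.5.

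The comparison of E14.5 with E11.5 asks how the matrix genes and their receptors differ between the expansion of neural stem cells and the peak of neurogenesis. Of the 84 members, 70 passed the minimum of a mean count of 16 in at least 1 group. Of these, 16 were higher at E14.5, 26 were lower and 28 were not called (edgeR quasi-likelihood test), where a call needed a Benjamini-Hochberg adjusted p below 0.05 together with a log2 fold change of more than 0.5 in size. Among all 14454 genes tested, 24.4% were called higher and 19.0% lower, against 22.9% and 37.1% of the tested members. The median log2 fold change was -0.25 over the tested members and -0.01 over all genes. In bulk tissue, fewer cells of a type and less RNA per cell cannot be told apart. The lower calls were 17 collagens, 1 laminin, 7 integrins and Itgb3bp, and the higher calls 11 collagens, 2 laminins and 3 integrins.

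Without the libraries of the second E14.5 mother, 12 members were higher and 28 lower. The median of all genes was then -0.02, and no share of all genes called was formed for this setting. A correction for GC content and transcript length left 8 higher and 36 lower, against 19.8% and 25.2% of all genes, and lowered the median of all genes to -0.14, so that the members' median lay 0.46 below that of all genes. Under it the calls of Col6a3, Col8a1, Col14a1, Col22a1, Col25a1, Itga7, Itgam and Itgb4 as higher ended, while Col4a2, Col4a5, Col7a1, Col11a2, Col12a1, Lamb2, Lamc1, Lamc3, Itga6 and Itgal were called lower in addition. Leaving out the second E14.5 mother ended the calls of Col8a1, Col25a1, Itgam and Itgb4 and added Col12a1 and Itgb2 to the lower calls. The ages did not overlap in CPM for 37 of the tested members, 10 higher and 27 lower at E14.5, against 55.5% of all genes, 28.0% higher and 27.5% lower.

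**Figure D2:**
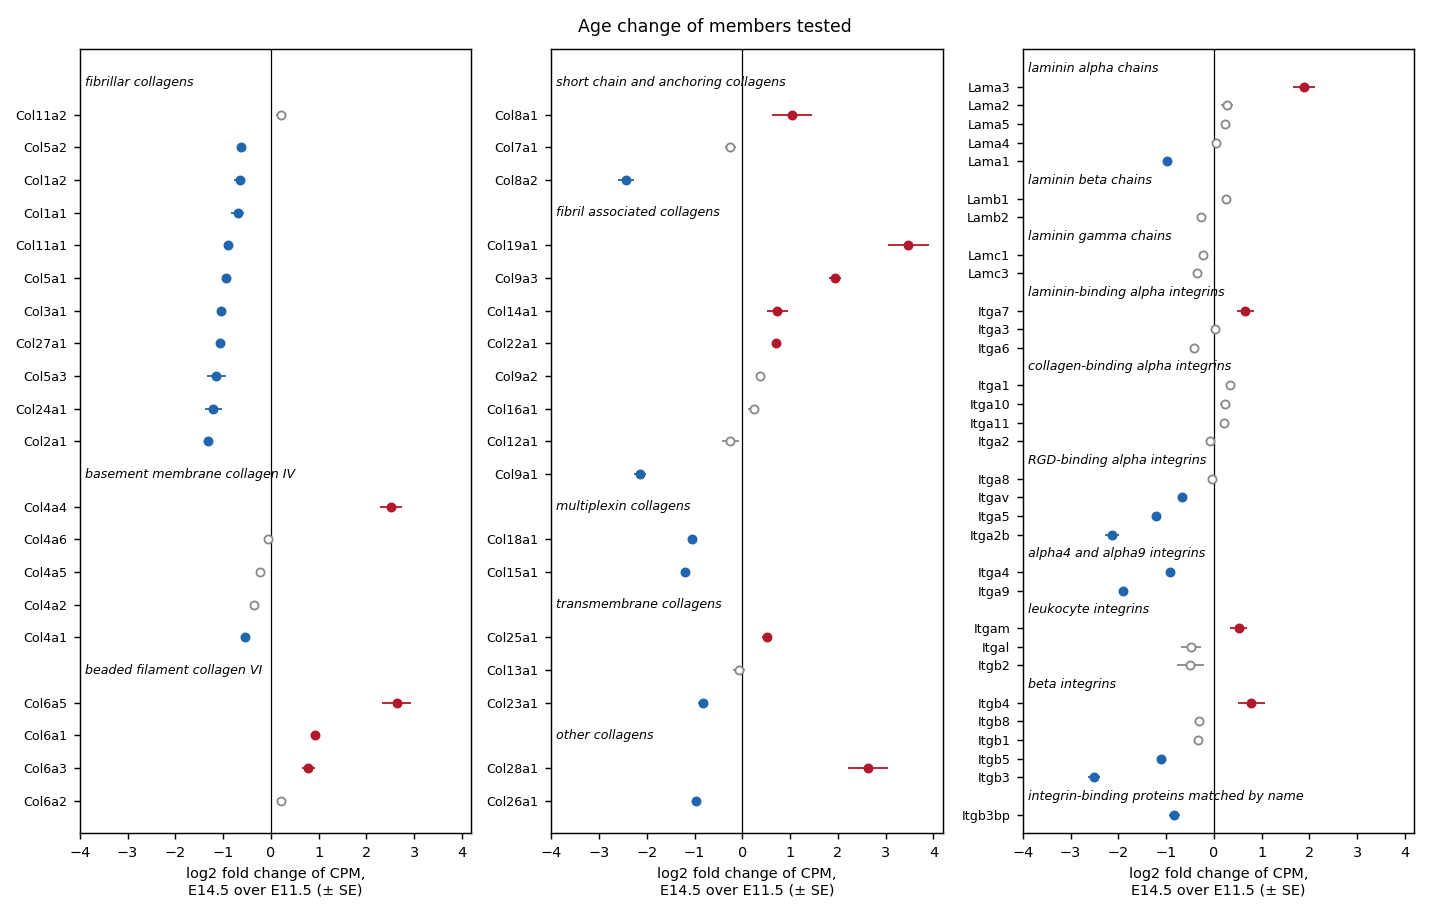
Fitted log2 fold change of CPM between E14.5 and E11.5 with its standard error for 69 of the 70 members tested, grouped by class; red points were called higher, blue points lower and open grey points were not called. Of the 11 fibrillar collagens 10 were called lower, while calls of collagen VI and of the fibril associated collagens were mostly in the other direction.

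Of 11 fibrillar collagen chains, all tested, 10 were lower at E14.5 and none was higher, with a median log2 fold change of -0.95. Col3a1, the single chain of type III collagen and a ligand of the receptor Adgrg1 on mouse radial glia, lay between 539 and 687 CPM at E11.5 (median 613) and between 247 and 350 CPM at E14.5 (median 285). The ages did not overlap, and Col3a1 was 2.05-fold lower at E14.5 (log2 -1.04 ± 0.05 SE, adjusted p = 3.5e-11). Col2a1, the chain of the main cartilage collagen, which the mouse neuroepithelium also expresses, lay between 194 and 246 CPM at E11.5 (median 225) and between 63.0 and 127 CPM at E14.5 (median 83.9), without overlap (log2 -1.32 ± 0.08, adjusted p = 1.2e-08). The E14.5 females held the 3 highest of the 6 E14.5 values.

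The chains of type I collagen, the most common collagen of mesenchyme, were also lower. Col1a2 lay between 152 and 229 CPM at E11.5 (median 193) and between 96.9 and 157 CPM at E14.5 (median 114), where the highest E14.5 library overlapped the lowest E11.5 library (log2 -0.65 ± 0.12, adjusted p = 0.00031). Col1a1, its partner, lay between 93.8 and 143 CPM at E11.5 and between 46.2 and 88.1 CPM at E14.5 and did not overlap (log2 -0.70 ± 0.14, adjusted p = 0.00073). Type V and type XI chains, which are built into fibrils of types I and II and limit their width, fell as well, Col5a1 by 0.95, Col5a2 by 0.63 and Col11a1 by 0.89 on the log2 scale. Col5a3, Col24a1 and Col27a1 were also called lower. The exception was Col11a2, at 5.46 to 9.03 CPM at E11.5 and 4.72 to 11.8 CPM at E14.5, which was not called when the sexes were averaged and is described with the sexes.

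The promoter windows of Col3a1 and Col1a2 are shown because these chains were the most abundant fibrillar chains per length with a window in the RefSeq table, moved in the same direction and changed their ratio. A window holds 250 bases before the annotated start and 50 from it on, 5′ to 3′ on the strand of the gene (GRCm38.p6). The Col3a1 window is chr1:45311288-45311587 on the plus strand and that of Col1a2 chr6:4505368-4505667 on the plus strand. Capitals mark 3 motifs, each searched on both strands. The first is CCAAT, which reads ATTGG on the opposite strand. The next is GGGCGG, which reads CCGCCC on the opposite strand. The last is TATAAA, and the marked matches do not overlap each other.
Col3a1: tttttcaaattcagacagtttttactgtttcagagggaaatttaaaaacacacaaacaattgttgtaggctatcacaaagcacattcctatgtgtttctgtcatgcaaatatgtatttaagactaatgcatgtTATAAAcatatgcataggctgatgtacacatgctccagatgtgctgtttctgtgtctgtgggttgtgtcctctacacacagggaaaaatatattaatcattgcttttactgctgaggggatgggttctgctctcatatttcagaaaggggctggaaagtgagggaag
Col1a2: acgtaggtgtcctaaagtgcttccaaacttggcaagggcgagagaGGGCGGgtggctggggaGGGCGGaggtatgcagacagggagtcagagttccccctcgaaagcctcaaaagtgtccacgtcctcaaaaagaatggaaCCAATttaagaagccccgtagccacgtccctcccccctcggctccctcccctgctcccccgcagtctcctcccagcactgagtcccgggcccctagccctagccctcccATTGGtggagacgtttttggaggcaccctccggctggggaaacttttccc
The Col3a1 window held 1 TATAAA, at position 134 of the window, and neither of the other motifs. The Col1a2 window held CCAAT at position 142, ATTGG at position 251 and GGGCGG at positions 46 and 63, and no TATAAA. Of the 27025 windows of the table, 37.9% held CCAAT or its complement, 35.9% GGGCGG or its complement and 14.2% TATAAA or its complement. Among the 60 members with a window, 15, 33 and 5 held them, and a match is a description of the letters only.

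Genes that process collagen gave more lower than higher calls. Of 31 enzymes and chaperones of collagen folding, secretion and crosslinking, 29 were tested, of which 12 were lower, 2 higher and 15 not called, with a median log2 fold change of -0.41, where 19.0% of all genes were called lower and 24.4% higher. Serpinh1, the collagen chaperone HSP47, lay between 512 and 569 CPM at E11.5 and between 216 and 265 CPM at E14.5 (log2 -1.14 ± 0.04, adjusted p = 3.5e-12). Loxl2, a crosslinking lysyl oxidase, lay between 61.8 and 77 CPM and between 15.9 and 18.9 CPM (log2 -1.97 ± 0.06, adjusted p = 2.0e-12). Neither gene overlapped between the ages. The 2 higher genes were Lox, another lysyl oxidase, and Adamts3, a procollagen peptidase.

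Mesenchymal markers moved beside these chains, and their part in the result was not tested. Of 22 markers of meningeal mesenchyme and pericytes, all tested, 12 were lower and 9 higher at E14.5, and their summed level lay between 898 and 943 CPM at E11.5 and between 565 and 663 CPM at E14.5. Lum, a proteoglycan of fibroblasts, lay between 101 and 120 CPM at E11.5 and between 31.3 and 51.8 CPM at E14.5 (log2 -1.52 ± 0.06, adjusted p = 4.2e-11). Both cell types had markers in each direction: Foxc1, Twist1, Pdgfra and Prrx1 of the mesenchyme and Pdgfrb of pericytes were lower, while Dcn, Ogn, Aldh1a2 and Slc6a13 of meningeal fibroblasts and Rgs5, Kcnj8 and Abcc9 of pericytes were higher. Of 12 markers of cartilage and skull, 5 were tested, and the cartilage matrix genes Acan, Matn1 and Comp stayed under the count minimum. The summed level of these 12 lay between 172 and 219 CPM at E11.5 and between 68.9 and 140 CPM at E14.5, and its tested genes Sox9 and Hapln1 are also expressed by neural cells.

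Of 6 collagen IV chains, 5 were tested, with 1 lower, 1 higher and 3 not called. Col4a1, of the trimer found in all basement membranes, lay between 363 and 507 CPM at E11.5 (median 438) and between 276 and 330 CPM at E14.5 (median 299), and the ages did not overlap (log2 -0.54 ± 0.04, adjusted p = 3.9e-09). Its partner Col4a2 lay between 180 and 246 CPM at E11.5 (median 220) and between 161 and 184 CPM at E14.5 (median 169), with overlap and a log2 fold change of -0.35 ± 0.04 (adjusted p = 3.1e-06), short of the fold threshold. With the GC and length correction the log2 fold changes were -0.98 for Col4a1 and -0.92 for Col4a2, and both were called lower. Col4a5 and Col4a6, the X-linked chains of the trimer of Bowman's capsule and smooth muscle, had log2 fold changes of -0.23 and -0.05 and were not called, although Col4a5 was called lower at -0.59 with the correction.

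Col4a4, a chain of the glomerular trimer, went the other way at a low level. It lay between 0.137 and 0.432 CPM at E11.5 and between 1.19 and 2.29 CPM at E14.5, from 3 to 10 and from 21 to 47 counts per library, without overlap (log2 2.51 ± 0.24, adjusted p = 1.2e-07). It was chosen for description after its values were seen, and its partner Col4a3 did not reach the count minimum. Col4a4 reached that minimum only through the E14.5 groups, so its call and the gap between the ages are not independent of the filter.

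The windows of Col4a1 and Col4a2 are shown because these partner chains lie head to head on chromosome 8, and that of Col4a4 because the chain moved in the opposite direction. The annotated starts of Col4a1 (position 11312826, minus strand) and Col4a2 (position 11312805, plus strand) were 21 bases apart, so that the windows shared 78 bases on opposite strands. The window of Col4a1 is chr8:11312777-11313076 on the minus strand, that of Col4a2 chr8:11312555-11312854 on the plus strand and that of Col4a4 chr1:82586800-82587099 on the minus strand, with capitals as above.
Col4a1: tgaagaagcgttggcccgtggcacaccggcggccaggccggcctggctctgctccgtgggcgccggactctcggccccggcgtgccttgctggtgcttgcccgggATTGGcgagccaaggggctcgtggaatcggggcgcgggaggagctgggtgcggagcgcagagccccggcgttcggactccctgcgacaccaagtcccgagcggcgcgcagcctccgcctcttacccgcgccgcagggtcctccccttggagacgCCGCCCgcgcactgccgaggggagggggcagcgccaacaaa
Col4a2: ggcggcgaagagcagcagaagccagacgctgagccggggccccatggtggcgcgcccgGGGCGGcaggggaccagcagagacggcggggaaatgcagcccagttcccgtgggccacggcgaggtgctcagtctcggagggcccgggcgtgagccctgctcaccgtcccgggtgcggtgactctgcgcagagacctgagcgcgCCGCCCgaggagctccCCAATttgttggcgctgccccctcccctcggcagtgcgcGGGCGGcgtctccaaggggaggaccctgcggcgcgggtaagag
Col4a4: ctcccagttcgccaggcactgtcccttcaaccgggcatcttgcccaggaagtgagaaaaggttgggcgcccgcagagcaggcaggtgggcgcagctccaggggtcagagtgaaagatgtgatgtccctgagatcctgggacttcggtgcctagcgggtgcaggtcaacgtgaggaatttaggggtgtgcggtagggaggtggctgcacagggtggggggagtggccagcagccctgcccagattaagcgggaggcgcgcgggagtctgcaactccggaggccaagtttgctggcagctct
ATTGG stood at position 106 of the Col4a1 window and CCAAT at position 219 of the Col4a2 window. CCGCCC at position 260 of the Col4a1 window and GGGCGG at position 258 of the Col4a2 window lie within the shared bases. The Col4a2 window also held GGGCGG at position 59 and CCGCCC at position 203. The Col4a4 window held none of the 3 motifs in its 300 bases.

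The other collagens split by class. Both multiplexins, collagens of vascular and epithelial basement membranes that carry heparan or chondroitin sulfate chains, fell: Col18a1, whose cleavage releases endostatin, lay between 162 and 214 CPM at E11.5 (median 199) and between 78.8 and 119 CPM at E14.5 (median 89.9), without overlap (log2 -1.05 ± 0.05, adjusted p = 6.4e-11). Col15a1 lay between 24.7 and 37.8 CPM at E11.5 and between 11.6 and 15.2 CPM at E14.5 (log2 -1.21 ± 0.08, adjusted p = 1.3e-09). Beside them, 18 endothelial markers, all tested, gave 3 lower, 2 higher and 13 not called, with sums of 602 to 701 CPM at E11.5 and 490 to 543 CPM at E14.5. Cdh5, the endothelial cadherin, was among those not called (log2 -0.50 ± 0.08), and the part of endothelium in the result was not tested.

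Of 6 chains of collagen VI, the beaded filament collagen around cells, 4 were tested, of which Col6a1, Col6a3 and Col6a5 were called higher and Col6a2 was not. Col6a1 lay between 10.1 and 13.9 CPM at E11.5 (median 11.6) and between 18.3 and 28.5 CPM at E14.5 (median 21.8), and every E14.5 library was above every E11.5 library (log2 0.93 ± 0.10, adjusted p = 4.9e-07). Col6a3 lay between 10.2 and 18.1 CPM and between 16.9 and 31.0 CPM and overlapped (log2 0.79 ± 0.13, adjusted p = 0.00010). Its corrected log2 fold change was 0.17. Col6a2, at 14.2 to 21.7 CPM and 16.6 to 24.0 CPM, overlapped (log2 0.21 ± 0.08, adjusted p = 0.032) and was at -0.22 with the correction, under which only Col6a1 and Col6a5 of the class were called.

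Type IX collagen, whose 3 chains form 1 trimer on the surface of type II fibrils, changed in different directions within the trimer. Col9a1 lay between 5.14 and 8.15 CPM at E11.5 (median 6.74) and between 1.24 and 1.82 CPM at E14.5 (median 1.49), 4.44-fold lower and without overlap (log2 -2.15 ± 0.13, adjusted p = 6.8e-10). Col9a3 lay between 4.6 and 6.82 CPM (median 5.16) and between 15.7 and 25.4 CPM (median 22.0), 3.85-fold higher and without overlap (log2 1.94 ± 0.13, adjusted p = 8.8e-09). Col9a2, at 4.82 to 7.57 and 6.53 to 9.07 CPM, was not called (log2 0.37 ± 0.08). Per length, the mean levels of Col9a1, Col9a2 and Col9a3 were 1.43, 1.95 and 1.72 FPKM at E11.5 and 0.310, 2.42 and 6.37 FPKM at E14.5.

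Among the remaining collagens, Col8a2, a short chain collagen of hexagonal lattices, had the largest fall. It lay between 32.0 and 59.7 CPM at E11.5 (median 47.3) and between 6.22 and 14.6 CPM at E14.5 (median 7.66), 5.43-fold lower and without overlap (log2 -2.44 ± 0.17, adjusted p = 9.5e-08). Its relative Col8a1 was called higher (log2 1.05 ± 0.42, adjusted p = 0.036), but the highest of its E14.5 values, 6.28 CPM, was replicate 3 of the males, without which the log2 fold change was 0.62 with an adjusted p of 0.084 (edgeR). The call ended without any 1 of 6 libraries: replicates 2 and 3 of the E11.5 females, replicates 1 and 3 of the E11.5 males, and replicate 3 of each sex at E14.5. Col22a1, of tissue junctions, lay between 10.8 and 18.4 CPM and between 21.3 and 25.1 CPM, without overlap (log2 0.70 ± 0.08, adjusted p = 6.8e-07), and with the GC and length correction at 0.29. Of the transmembrane collagens Col23a1 was lower (log2 -0.83 ± 0.11), Col13a1 was not called (log2 -0.07 ± 0.13) and Col25a1 was just past the fold threshold (log2 0.51 ± 0.11). It fell under that threshold, to between 0.46 and 0.49, without replicate 3 of the E11.5 females, replicate 2 of the E11.5 males, replicates 2 or 3 of the E14.5 females or replicate 3 of the E14.5 males. Col26a1, a collagen of few collagenous repeats, lay between 43.9 and 56.9 CPM and between 21.2 and 32.4 CPM, without overlap (log2 -0.97 ± 0.05, adjusted p = 2.0e-10).

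The largest fold changes upward were in members with few reads. They were chosen for description after their values were seen. Col19a1, which mouse interneurons express, had 0 to 10 counts per library at E11.5 and 27 to 60 at E14.5 (log2 3.48 ± 0.43, adjusted p = 4.4e-06). Col28a1 had 1 to 6 and 10 to 24 counts (log2 2.63 ± 0.42), and Col6a5 had 1 to 5 and 14.5 to 31 estimated counts (log2 2.63 ± 0.30). In none of the 3 did the ages overlap in CPM. Each of the 3 reached the count minimum only through the E14.5 groups. With so few E11.5 counts it could enter the test only by being higher at E14.5, so its call and the gap between the ages are not independent of that filter.

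Of 11 laminin chains 10 were tested, with 2 higher, 1 lower and 7 not called. The beta and gamma chains of most laminins were not called. Lamb1, at 63.0 to 74.2 CPM at E11.5 (median 66.4) and 61.4 to 104 CPM at E14.5 (median 82.1), overlapped (log2 0.25 ± 0.06, adjusted p = 0.0011). Lamc1, the common gamma chain, lay between 115 and 121 CPM at E11.5 (median 118) and between 86.4 and 121 CPM at E14.5 (median 102) and overlapped (log2 -0.22 ± 0.05). Lamb2, of synaptic and vascular laminins, and Lamc3 had log2 fold changes of -0.27 and -0.36. With the GC and length correction Lamb1 was at -0.07, while Lamc1, Lamb2 and Lamc3 were called lower at -0.63, -0.73 and -0.96.

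The alpha chains, which set the receptor bound, differed among themselves. Lama1, the alpha chain of the first embryonic laminin and of the pial basement membrane, lay between 62.2 and 74.7 CPM at E11.5 (median 68.4) and between 29.6 and 38.1 CPM at E14.5 (median 35.6). Every E14.5 library was below every E11.5 library (log2 -0.97 ± 0.06, adjusted p = 1.4e-09, and -1.54 with the correction). Lama4, the alpha chain of endothelial basement membranes, lay between 35.7 and 44.7 CPM and between 30.2 and 52.8 CPM (log2 0.05 ± 0.05), Lama2, of muscle and perivascular laminin, between 11.3 and 18 CPM and between 9.47 and 31.0 CPM (log2 0.27 ± 0.13), and Lama5, of the laminins of later basement membranes, between 11.7 and 18.4 CPM and between 13.1 and 26.0 CPM (log2 0.23 ± 0.08). All 3 overlapped between the ages and were not called.

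Lama3, an alpha chain of the laminin of epidermal attachment, had 3 to 9 counts per library at E11.5 and 17 to 26 at E14.5 and was called higher, without overlap in CPM (log2 1.89 ± 0.24, adjusted p = 2.9e-06), while Lamb3, a beta chain of that laminin, did not reach the count minimum, with 17 counts in its highest library. Lamb3 had 20 counts summed over the E11.5 libraries and 62 over the E14.5 libraries. Lama3 reached the minimum only through the E14.5 groups, so its call and the gap between the ages are not independent of that filter.

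Other basement membrane genes gave 6 lower, 2 higher and 10 not called of 18 tested (19 listed), with a median log2 fold change of -0.26. Hspg2, the heparan sulfate proteoglycan perlecan, lay between 95.0 and 122 CPM at E11.5 and between 59.0 and 81.8 CPM at E14.5 (log2 -0.72 ± 0.08, adjusted p = 1.5e-06). Vtn, the adhesion protein vitronectin, was higher (log2 0.75), as was Npnt. Fn1, fibronectin, and Nid1, which links laminin to collagen IV, were among the lower genes. Of the 16 enzymes that build the laminin-binding glycan of dystroglycan, all tested, 14 were not called, 1 was higher and 1, B3galnt2, was lower (log2 -0.57). A list of other matrix receptors and their partners was mixed, with 7 lower, 5 higher and 6 not called of 18 tested. Not all of them are themselves collagen or laminin receptors, and Unc5a, Cd47 and Sgcd, which were called higher, are among these.

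**Figure D3:**
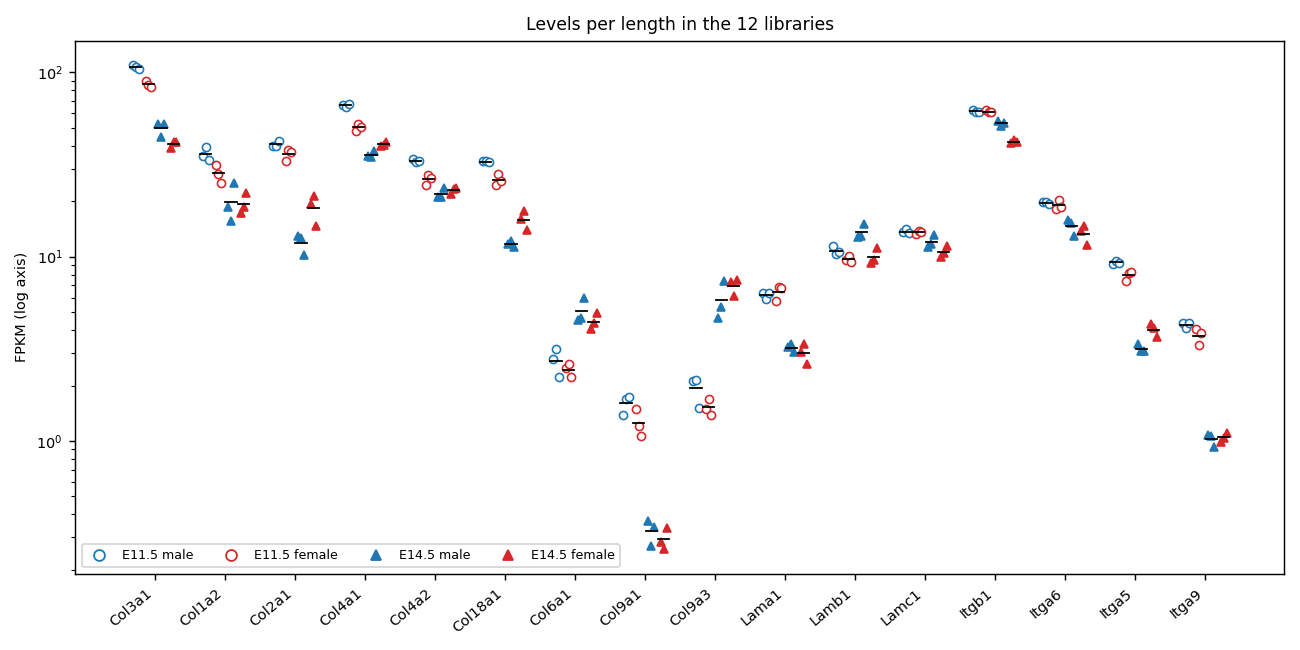
FPKM (log axis) of 16 members in each of the 12 libraries; open circles are E11.5, filled triangles E14.5, blue male and red female, and each bar is the mean of 3 libraries. Col3a1, Col2a1, Col18a1, Lama1, Itga5 and Itga9 were lower and Col6a1 and Col9a3 higher in every E14.5 library, while Lamb1 overlapped between the ages.

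Of 27 integrin subunits 21 were tested, of which 7 were lower, 3 higher and 11 not called, with a median log2 fold change of -0.33. Itgb1, the beta subunit shared by most laminin and collagen receptors, lay between 286 and 298 CPM at E11.5 (median 292) and between 198 and 269 CPM at E14.5 (median 232). The ages did not overlap, but the log2 fold change of -0.33 ± 0.03 (adjusted p = 7.6e-08) was under the fold threshold. Its main laminin-binding partner Itga6 lay between 125 and 139 CPM and between 82.6 and 112 CPM, again without overlap and without a call (log2 -0.42 ± 0.06, adjusted p = 6.7e-06), and was called lower at -0.72 with the GC and length correction. Itga3, another laminin receptor subunit, was not called (9.39 to 10.5 and 8.40 to 11.6 CPM, log2 0.02 ± 0.07), and Itga7, of muscle, lay between 0.865 and 1.17 CPM and between 1.25 and 2.37 CPM (log2 0.66 ± 0.18, adjusted p = 0.0031). Its corrected value was 0.42.

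None of the 4 alpha subunits of collagen receptors was called. Itga1 lay between 13.2 and 18.4 CPM at E11.5 and between 12.7 and 27.3 CPM at E14.5 (log2 0.34 ± 0.08), Itga2 between 7.56 and 10.2 CPM and between 6.11 and 12.4 CPM (log2 -0.07 ± 0.08), and Itga11 between 5.69 and 7.35 CPM and between 6.24 and 8.85 CPM (log2 0.21 ± 0.09). Itga10 lay between 1.91 and 2.61 CPM and between 2.45 and 2.73 CPM (log2 0.23 ± 0.11). Each of the 4 overlapped between the ages.

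Of 4 alpha subunits of receptors for fibronectin and other ligands with an RGD motif, Itga5, Itgav and Itga2b were lower and Itga8, a receptor of nephronectin, was not called (log2 -0.04). Itga5, the fibronectin receptor, lay between 37.8 and 47.2 CPM at E11.5 (median 44.5) and between 16.5 and 22.0 CPM at E14.5 (median 18.6), 2.32-fold lower and without overlap (log2 -1.22 ± 0.05, adjusted p = 1.3e-11). Itgav, the partner of several beta subunits, lay between 54.3 and 67.6 CPM and between 31.3 and 40.8 CPM (log2 -0.68 ± 0.05, adjusted p = 1.5e-08). Of its partners, Itgb5 lay between 25.9 and 33.8 CPM and between 11.7 and 17.1 CPM (log2 -1.11 ± 0.08, adjusted p = 1.7e-08). Itgb8, which with Itgav activates transforming growth factor beta around brain vessels, lay between 30.6 and 40.3 CPM and between 23.7 and 33.4 CPM and was not called (log2 -0.32 ± 0.05).

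Itga4 and Itga9, related subunits that bind VCAM1, fibronectin and tenascin, both fell. Itga9 lay between 26.8 and 35.1 CPM at E11.5 (median 32.6) and between 7.94 and 9.29 CPM at E14.5 (median 8.78), 3.73-fold lower and without overlap (log2 -1.90 ± 0.07). Its adjusted p of 4.5e-12 (edgeR) was the lowest of all members in the age comparison. Itga4 lay between 38.3 and 52.8 CPM and between 17 and 28.7 CPM (log2 -0.92 ± 0.08, adjusted p = 2.7e-07).

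The subunits of the platelet fibrinogen receptor fell beside the markers of platelets and their precursors. Itga2b lay between 6.54 and 11 CPM at E11.5 (median 8.09) and between 1.51 and 2.38 CPM at E14.5 (median 1.95), without overlap (log2 -2.14 ± 0.15, adjusted p = 5.1e-09). Itgb3, its partner and also a partner of Itgav, lay between 14.2 and 24.1 CPM (median 22.4) and between 3.23 and 4.88 CPM (median 3.58), the largest fall of a subunit (log2 -2.51 ± 0.13, adjusted p = 6.7e-10). Of 17 erythroid and megakaryocyte genes 16 were tested, with 14 lower and 1 higher, and the platelet chemokine Pf4 lay between 8.03 and 13 CPM at E11.5 and between 2.09 and 3.29 CPM at E14.5 (log2 -2.09 ± 0.12). The part of these cells in the fall of Itga2b and Itgb3 was not tested.

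The leukocyte integrins were near the limit of detection. Of 8 subunits 3 were tested. Itgam, of the macrophage receptor Mac-1, was called higher (log2 0.52 ± 0.18, adjusted p = 0.018), and Itgal and Itgb2 were not called (log2 -0.48 ± 0.21 and -0.49 ± 0.29). Itgal was called lower without replicate 2 of the E14.5 females (-0.61) or replicate 1 of the E14.5 males (-0.67), and Itgb2 without replicate 3 of the E14.5 males (-0.73). The call of Itgam ended without any 1 of 5 libraries, replicate 2 of the E11.5 females, replicates 1 and 2 of the E11.5 males, replicate 2 of the E14.5 females and replicate 3 of the E14.5 males. Beside it, 16 markers of microglia and macrophages gave 4 higher, 2 lower and 10 not called, with sums of 91.7 to 98.2 CPM at E11.5 and 91.5 to 152 CPM at E14.5. Itgb4, the hemidesmosome subunit, was called higher (log2 0.79 ± 0.28, adjusted p = 0.016), and without replicate 3 of the E14.5 males its log2 fold change was 0.62 with an adjusted p of 0.061 (edgeR).

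The cytoplasmic proteins that link integrins to actin and to kinases gave 9 lower, 2 higher and 16 not called of 27 tested, with a median log2 fold change of -0.31. Parva, an actin-binding partner of integrin-linked kinase, was lower (log2 -0.69), and the kinase Fyn was higher (log2 0.84). Tln1, the talin that activates integrins, lay between 83.3 and 95.0 CPM at E11.5 and between 61.6 and 68.7 CPM at E14.5 and did not reach the fold threshold (log2 -0.45 ± 0.04). Ptk2, focal adhesion kinase, was at 162 to 171 CPM and 160 to 173 CPM. Of the 2 genes that only share the name, Itgb3bp, a centromere protein gene, was lower (11.5 to 14.9 and 5.25 to 9.83 CPM, log2 -0.82 ± 0.11), and Itgb1bp2 was not tested.

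The 14 members under the count minimum were Col4a3, Col6a4, Col6a6, Col10a1, Col17a1, Col20a1, Lamb3, Itgax, Itgad, Itgae, Itgb2l, Itgb7, Itgb6 and Itgb1bp2. None had more than 19 counts in any library. Col10a1, of hypertrophic cartilage, had 3 counts summed over the E11.5 libraries and 2 over the E14.5 libraries, and Itgb6, an epithelial subunit, had 2 and 2. They were not tested, and Col4a3 had 11 counts summed over the E11.5 libraries and 60 over the E14.5 libraries, Itgax 1 and 13.

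To compare chains that share a trimer or take the same place in one, the FPKM ratio of 21 pairs of members was formed within each library, where the scaling of the library cancels. The log2 ratio differed between the ages in 16 of 21 pairs (exact two-sided permutation test over 6 against 6 libraries, Benjamini-Hochberg adjusted over the 21 pairs), and in 8 pairs the ages did not overlap. In each of these 8 the p of 0.00216 was the smallest that 6 against 6 libraries allow (adjusted p = 0.0057). The permutation takes the embryos as independent, although littermates share a mother and the ages rest on 3 and 2 mothers. Ratios of other gene pairs were not formed, so the counts of 16 and 8 pairs have no share beside them. Among single genes, 11807 of 14454 passed the adjusted p alone in the age comparison (edgeR), and 55.5% did not overlap in CPM.

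The ratio of Col4a1 to Col4a2 lay between 1.89 and 2.04 at E11.5 (median 1.96) and between 1.58 and 1.81 at E14.5 (median 1.70). These chains assemble in a ratio of 2 to 1, and the ratio was lower in every E14.5 library (mean log2 difference -0.20). Between changes fitted with the GC and length correction the difference was -0.06, the chains differing in GC content at 55.6% and 60.5%. The ratio of Col9a1 to Col9a2 went from 0.564 to 0.857 at E11.5 to between 0.0935 and 0.184 at E14.5, and that of Col9a3 to Col9a2 from 0.745 to 1.01 to between 2.22 and 3.26. These chains form a trimer of 1 each, and both ratios held their direction with the correction. The ratio of Col6a1 to Col6a2 rose from between 0.820 and 1.09 to between 1.35 and 1.96.

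Among laminins, the ratio of Lama1 to Lama5, the early and the later alpha chain, lay between 4.46 and 6.38 at E11.5 (median 5.25) and between 1.36 and 3.34 at E14.5 (median 2.47), without overlap (mean log2 difference -1.21). The ratio of Lamc1 to Lamb1, which stand in the same trimer, lay between 1.19 and 1.46 and between 0.875 and 1.08, also without overlap (-0.46). The ratio of Lama2 to Lama1 rose (mean log2 difference 1.23, exact permutation p = 0.0043, adjusted p = 0.010), with 1 pair of overlapping ranges, 0.162 to 0.282 and 0.281 to 0.874. Lama4 to Lama5 did not pass with the sexes pooled (exact permutation p = 0.52, adjusted p = 0.55), but the ratio moved in opposite directions in the sexes. Its median went from 4.55 to 6.67 in males and from 4.64 to 2.72 in females, and the ages did not overlap in either sex. The ratio was not tested within a sex, and the chains differ in GC content (46.1% and 57.3%).

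Among integrins, the ratio of Itga6 to Itga7 lay between 74.2 and 107 at E11.5 and between 27.8 and 62.0 at E14.5, and that of Itgb5 to Itgav between 0.947 and 1.31 and between 0.672 and 0.941, both without overlap. The fitted difference for Itgb5 to Itgav went from -0.43 to -0.18 with the GC and length correction. That for Itgb8 to Itgav went from 0.36 to 0.71. The ratio of Itga6 to Itgb1, receptor partners, did not pass (0.293 to 0.335 and 0.241 to 0.340, exact permutation p = 0.26, adjusted p = 0.29). The ratio of Col1a1 to Col1a2, which assemble in a ratio of 2 to 1, did not pass either (0.471 to 0.550 and 0.420 to 0.568, exact permutation p = 0.57, adjusted p = 0.57). The ratio of Col3a1 to Col1a2 fell from between 2.73 and 3.33 to between 1.88 and 2.86 (exact permutation p = 0.011, adjusted p = 0.021), with overlap. Without the second E14.5 mother the calls of Col4a5 to Col4a6, Itgb8 to Itgav, Lamb2 to Lamb1 and Itga5 to Itgav ended. The first ended also without any E11.5 male, replicate 2 or 3 of the E14.5 males, or replicate 1 or 2 of the E14.5 females, the next without any E14.5 male or replicate 1 or 2 of the E14.5 females, and Lamb2 to Lamb1 without replicate 2 of the E11.5 males. Col5a1 to Col5a2 passed without replicate 1 or 3 of the E14.5 females.

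**Figure D4:**
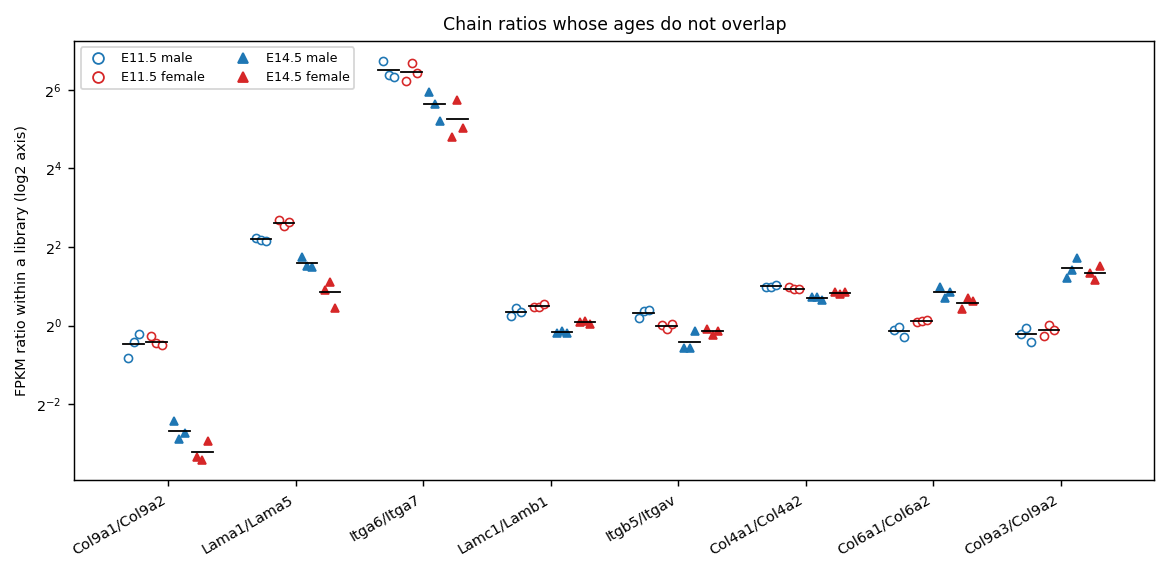
FPKM ratio of 2 chains within a library (log2 axis) for the 8 pairs whose ages did not overlap, in each of the 12 libraries; open circles are E11.5, filled triangles E14.5, blue male and red female, and each bar is the mean of 3 libraries. The ratio was higher at E14.5 for Col6a1 to Col6a2 and Col9a3 to Col9a2 and lower for the other 6 pairs.

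In the sexes taken separately, 14 members were higher and 29 lower at E14.5 in males, where 24.7% and 20.4% of all genes were called, and 15 higher and 27 lower in females, where 25.0% and 19.6% were. Without the second E14.5 mother 40 of the 43 calls in males held and 1 was added. In females 41 of the 42 held and 2 were added. With the GC and length correction 9 members were higher and 37 lower in males, against 20.3% and 26.1% of all genes, and 7 were higher and 40 lower in females, against 19.1% and 24.8%. The comparison of females with males asks whether the sexes differ at each age. At E11.5 no member was called, against 0.374% of all genes. An unadjusted p under 0.05 (edgeR) was found in 24 of 70 members and in 2627 of all 14454 genes. By DESeq2's Wald test 2 members were lower in females, Col11a2 and Col16a1. With the litter as a block, as the table of mothers gives it, 4 were lower in females: Col8a1, Col8a2, Col11a2 and Col16a1. No share of all genes was formed for these 2 alternatives. By the adjusted p alone 7 members were lower in females and none was higher, against 1.16% and 0.982% of all genes. Of these, Col4a1 lay between 478 and 507 CPM in males and between 363 and 398 CPM in females (log2 -0.37 ± 0.05, adjusted p = 0.0030 by edgeR). Col3a1, Col4a2, Col15a1, Col18a1, Col27a1 and Itgb8 were the others. The fitted difference was below 0 in 53 of the 70 members and in 35 of the 38 collagens tested, against 50.1% of all genes, with a median of -0.31 over the collagens and 0.00 over all genes. This difference moved with GC content as well, the median of all genes going from 0.08 in the lowest of 5 bins of GC content to -0.11 in the highest. After correction the collagen median was -0.21 with 33 of 38 below 0, and of the 7 members Col4a2, Col15a1, Col18a1 and Col27a1 no longer passed the adjusted p.

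At E14.5, 4 members were higher and 10 lower in females (edgeR, as above), against 5.98% and 5.62% of all genes. Without the fold threshold the counts were 10 and 19, against 23.8% and 21.6%. Without the second E14.5 mother 11 of the 14 calls held, 3 ended and 2 were added. The difference moved with GC content. When all genes were put into 5 bins of GC content, the median log2 difference went from -0.29 in the lowest bin to 0.37 in the highest. The 4 members called higher had a GC content of 57.3% to 64.3%, and the 10 called lower one of 43.2% to 50.7%. After that correction no member was higher and 5 were lower, against 0.851% and 1.86% of all genes.

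Col11a2, the chain with the highest GC content at 64.3%, lay at 5.11, 7.45 and 4.72 CPM in the E14.5 males and 11.8, 10.8 and 10.5 CPM in the females, so that every female was above every male (log2 0.93 ± 0.14, adjusted p = 0.00013 by edgeR). With the correction the difference was 0.44, under the fold threshold. Lama5 lay at 13.1, 16.1 and 14.9 CPM in males and 21.1, 20.7 and 26.0 CPM in females (log2 0.62 ± 0.11), and at 0.39 with the correction. Col2a1 lay at 78.4, 77.7 and 63.0 CPM in males and 113, 127 and 89.4 CPM in females (log2 0.59 ± 0.12), and at 0.19 with the correction. Col7a1, of the anchoring fibrils of skin, was the remaining higher member (log2 0.60 ± 0.18, and 0.33 with the correction). Its call ended without replicate 1 or 2 of the E14.5 males. That of Col2a1 fell under the fold threshold without replicate 2 of the E14.5 females (0.47) or replicate 3 of the males (0.49).

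Lama2 lay at 22.0, 21.8 and 31.0 CPM in the E14.5 males and 9.47, 11.9 and 16.1 CPM in the females, every female below every male (log2 -1.0 ± 0.18, adjusted p = 0.00076 by edgeR), and the call held with the correction at -0.74. Itga2 lay at 12.4, 10.7 and 10.4 CPM in males and 6.11, 6.89 and 6.14 CPM in females (log2 -0.80 ± 0.12), and its call held at -0.55. Lama4 (log2 -0.54 ± 0.08) and Itga1 (log2 -0.67 ± 0.12) were at -0.29 and -0.31 with the correction and lost their calls. Col12a1, Col14a1, Col24a1, Col28a1, Lama3 and Itga8 were also called lower, of which Col12a1 and Col14a1 held their calls, at -0.95 and -0.98. The calls of Col28a1 and Lama3 (adjusted p = 0.049 and 0.041 by edgeR) ended by DESeq2, without the second E14.5 mother and without several single libraries. That of Col24a1 ended without this mother, replicate 1 or 2 of the E14.5 females or replicate 1 or 3 of the males. Those of Lama4 and Itga8 fell under the fold threshold without replicate 1 of the E14.5 females or replicate 3 of the males. Col6a1 was called lower only with the correction. Meningeal and pericyte markers moved beside them, with 630 to 663 CPM in the E14.5 males and 565 to 603 CPM in the females and 3 of 22 called lower, and their part in the result was not tested. With the litter as a block 12 members were called lower in place of 10. Without replicate 1 of the E14.5 females 6 members were called lower in place of 10. No share of all genes was formed for either setting.

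The change of the sex difference with age was called in 26 of 70 members, 14 upward and 12 downward, against 20.6% and 18.5% of all genes, at the adjusted p alone. Col11a2 went in opposite directions in the sexes, lower with age in males (log2 -0.52 ± 0.15) and higher in females (0.93 ± 0.14). After correction for GC content and length it was at -0.89 in males and -0.18 in females, where it was not called. Col4a1, Col18a1 and Col26a1, with Col11a2 those of smallest adjusted p, fell less in females, where their age changes were -0.28, -0.70 and -0.62 against -0.80, -1.39 and -1.32 in males. Corrected, the change of the sex difference was 0.20 for Col4a1, still called, and 0.13 for Col18a1 and 0.24 for Col26a1, which were not called. With the litter as a block 19 members were called upward and 15 downward, with 25 of the 26 among them. Without the second E14.5 mother 25 of the 26 calls also held, and 8 were added. No share of all genes was formed for either setting. With the GC and length correction 9 members were called, 4 upward and 5 downward, against 7.82% and 4.92% of all genes.

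**Figure D5:**
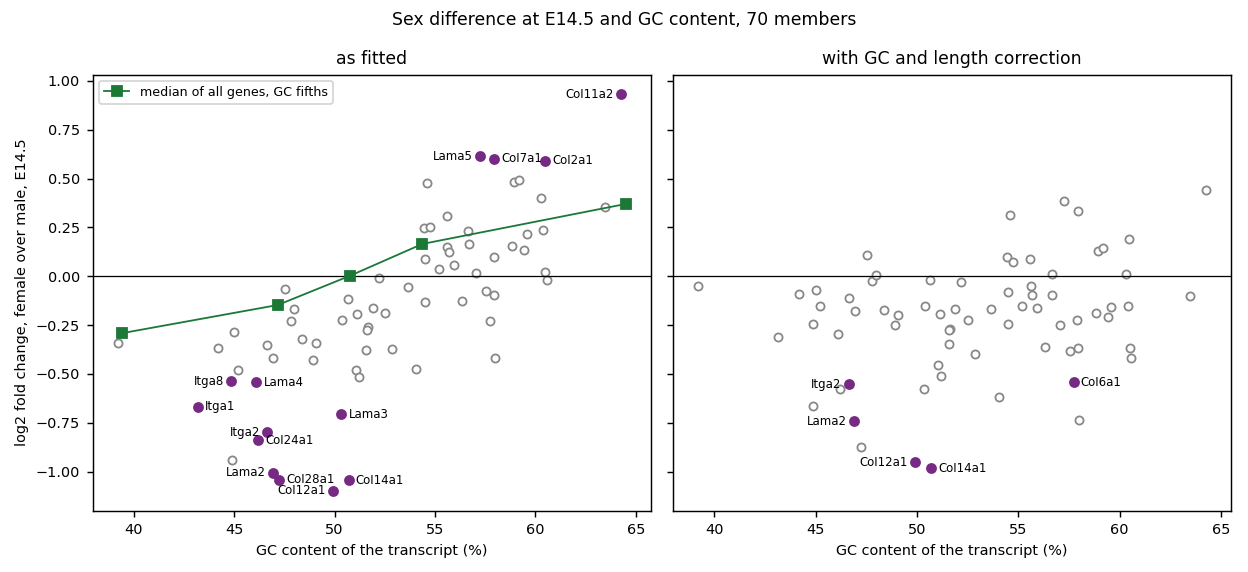
Log2 fold change between females and males at E14.5 against the GC content of the transcript for the 70 members tested, as fitted (left) and with the correction for GC content and length (right); purple points were called and named, open grey points were not called, and green squares are the medians of all genes in 5 bins of GC content, drawn at the middle of each bin. The calls above 0 lie above 57% GC and those below 0 under 51%, and 5 calls, all below 0, are left with the correction.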

How the data were processed

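PolyA RNA of 12 telencephalons, each of 1 embryo, was sequenced by the authors in paired-end reads from stranded libraries and aligned with STAR 2.6.0c to the mouse genome build named in the labels (GRCm38/mm10). The deposited table holds estimated counts per gene, of which 82.7% were whole, and FPKM, which the authors computed from count and transcript width. Members and lists were chosen with earlier results of these data known.

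Counts were rounded, scaled by TMM and tested with edgeR 4.0.16 (quasi-likelihood, robust, R 4.3.3) in 1 fit of the 4 groups on the 14454 genes whose mean count reached 16 in any group. The p-values were Benjamini-Hochberg adjusted over these genes, and calls needed an adjusted p below 0.05 together with a log2 fold change of more than 0.5 in size, except for the change of the sex difference (adjusted p alone). The age comparison averages the sexes, and sex differences are female minus male. The main fit takes the embryos as independent, although littermates share a mother (3 mothers at E11.5 and 2 at E14.5). Chain ratios were tested by an exact two-sided permutation test. Depth was 17551763 to 28355361 counts. The fit was tested on simulated data for the age comparison, with 96 of 100 genes recovered at an absolute log2 change of 1 and 2 false calls. The simulated libraries were independent, with an assumed spread and no effect of the mother, so these figures do not give the error rates in the data.

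Named genes were the 3 members of highest FPKM in each class, the 8 largest called age changes in each direction with a group mean count of 100 or more and without overlap, the 4 smallest adjusted p in each direction in the sex comparisons, the members of described pairs and, in each other list, the 2 smallest adjusted p and defining markers. Other members may be listed with their call, and some genes counted are not reported here by name. Within an age, equal replicate numbers mark a shared mother, and at E14.5 replicates 1 and 2 also share a mother. The replicate block joins equal numbers of both ages, although their mothers differ. The deviations of males and females with the same number correlated at 0.07 to 0.23 at E11.5 and 0.21 to 0.56 at E14.5. Alternatives were DESeq2 1.42.0, limma 3.58.1 on log2(FPKM + 1) and log2(FPKM + 0.1), other scalings and count minimums, a replicate block, a GC and length correction, and leaving out each library. Promoter sequences came from RefSeq (GRCm38.p6), with windows for 60 of 84 members.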

Additional observations from a re-analysis of the deposited data

Results flagged for a closer look

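The change of the sex difference between E11.5 and E14.5 is the female minus male log2 difference at E14.5 less that at E11.5. It passed the adjusted p (edgeR interaction) in 26 of 70 members, 14 upward and 12 downward, against 20.6% and 18.5% of all genes. It was positive for Col2a1 (0.74), Col5a1 (0.54), Col11a2 (1.45), Col27a1 (0.57), Col4a1 (0.52), Col4a2 (0.33), Col7a1 (0.87), Col9a2 (0.76), Col22a1 (0.44), Col15a1 (0.45), Col18a1 (0.69), Col26a1 (0.70), Lama5 (0.95) and Itga5 (0.51). It was negative for Col11a1 (-0.23), Col12a1 (-1.15), Col14a1 (-1.28), Col25a1 (-0.70), Lama2 (-1.33), Lama4 (-0.33), Lamb1 (-0.35), Itga2 (-0.76), Itga8 (-0.51), Itgav (-0.32), Itga4 (-0.49) and Itgb1 (-0.40). After correction for GC content and length, 7 of these 26 were still called: Col11a2, Col4a1 and Lama5 upward, and Col12a1, Lama2, Lamb1 and Itgav downward. The corrected change of Col4a2 was -0.25, of the opposite sign. In all, 4 members were called upward and 5 downward with the correction, against 7.82% and 4.92% of all genes.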

How the results depend on the processing

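Each count of members below is out of 70, except at the count minimum of 50, where 58 were tested. The count of chain ratios is out of 21 pairs. Shares of all genes called were formed for the main fit and for the GC and length correction without a block. The counts of members under the other settings have no such share beside them. With the GC and length correction, and alike with the replicate block added, 8 members were higher with age, 9 in males and 7 in females; 0 were higher and 5 lower in females at E14.5 (6 lower with the block), and the sex difference changed upward in 4 and downward in 5 (6 with the block). Under it the age change of Col11a2 turned to -0.53 (-0.54 with the block) from 0.20. At a count minimum of 50, 7 members were higher with age, 7 in males and 8 in females. By limma on log2(FPKM + 1), 2 were higher with age, 3 in males and 3 in females, 1 was higher and 2 were lower in females at E14.5, and 5 sex differences changed downward. On log2(FPKM + 0.1) the last 2 counts were 5 and 5. At E11.5, 2 members were lower in females by DESeq2, 4 with the replicate block by litter, 3 without the second E14.5 mother and 7 by the adjusted p alone, which at E14.5 gave 10 higher and 19 lower. The replicate block alone, which is not a block of mothers, ended 1 age call, Col8a1 (0.98, adjusted p = 0.058 by edgeR), and otherwise changed no age call. Leaving out 1 library gave 12 to 16 higher and 26 to 27 lower with age, 0 to 2 lower in females at E11.5, 3 to 4 higher and 6 to 12 lower in females at E14.5, 12 to 19 upward and 5 to 14 downward changes of the sex difference, and 14 to 17 chain ratios. Few reads limit Col4a4, Col6a5, Col19a1, Col28a1 and Lama3, which reached the count minimum only through E14.5, where they were higher. The E14.5 groups rest on 2 mothers, and sequencing series and group cannot be told apart.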
